A study of Mus musculus with 8 samples.

Results

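The genes described here encode the metallothioneins *Mt1* and *Mt2* and 8 components of the oxidative stress response, namely *Hmox1*, *Nqo1*, *Gclm*, *Gclc*, *Txnrd1*, *Srxn1*, *Nfe2l2* and *Keap1*. They were chosen by their gene symbols, with earlier results of these data known, so that shares among them are descriptions and not independent tests. The 10 mRNAs are 10 of the 24052 gene symbols counted in each library. All 10 had enough counts to be tested, among 11672 tested mRNAs. RNA-Seq was done on WT mTEC 3.10 cells, a line of mouse medullary thymic epithelial cells, and on E6, a single clone of that line with Crispr-Cas9 mutations of *Aire*, the autoimmune regulator. Each was sequenced before and after adhesion of thymocytes from C57BL/6 mice, with 2 libraries in each of the 4 groups. Before adhesion the cells had no thymocytes, and for the groups after adhesion the labels give 12 h of co-culture with 50 thymocytes per mTEC. The labels write the genotype of E6 as *Aire* +/- and its source as a knockout, where the study's methods describe mutations in both alleles. E6 is 1 clone, so that a difference between E6 and WT cannot be told apart from a difference between this clone and the parental line that does not depend on *Aire*. In 3 of the 4 groups the 2 libraries differ in the labelled culture time. For WT before adhesion nothing says that they came from separate cultures, and p-values measure the spread between these libraries, which may be technical in part.

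Metallothioneins are small cysteine-rich proteins that bind zinc and copper, and their genes are switched on by the zinc sensor MTF1 through metal response elements (MRE). The other genes belong to the NRF2 system. NRF2, encoded by *Nfe2l2*, is a transcription factor that KEAP1 holds in the cytoplasm and hands over for degradation, until electrophiles or oxidants modify the cysteines of KEAP1. NRF2 then enters the nucleus and binds antioxidant response elements (ARE) of genes for glutathione synthesis, thioredoxin reduction, and heme and quinone metabolism. Much of its control is on the protein, so that the mRNAs of *Nfe2l2* and *Keap1* do not measure NRF2 activity.

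The libraries held 13506610 to 20145154 counts on genes, so that a floor of 3 counts was 0.149 to 0.222 CPM (counts scaled to a common library total, with factors of the TMM method). A single library stood apart, replicate 1 of WT after adhesion, with 66.7% of its alignments on genes where the others had 75.7% to 78.8%, and with a slope of -0.457 in log2 counts per 10% of GC content. By the labels, culture lasted 24 h in replicate 2 of WT after adhesion and in the first replicate of each E6 group, and 12 h elsewhere. *Aire* itself had 0 counts in the 4 libraries before adhesion and in replicate 1 of WT and of E6 after adhesion, and 3 counts in replicate 2 of each. Its level could therefore not check the labels at this depth. The 11 markers of thymic epithelium summed to between 3338 and 5111.9 CPM, and of these only *Psmb11*, a marker of the cortical type, had 0 counts in all libraries. *Krt5*, a basal keratin, stayed at or below 1.02 CPM. The 15 thymocyte markers with counts summed to 0.536 to 1.18 CPM before adhesion, to 18.2 to 30.3 CPM in WT after adhesion and to 122.5 to 157 CPM in E6 after adhesion, and each of the 15 had counts in both groups after adhesion. Macrophage markers summed to 44.7 to 67.7 CPM over 10 genes in all libraries, most of it *Csf1r*. Of these 10, 7 had 0 counts in WT and in E6 before adhesion, and only *Cd163* had 0 counts after it. *Lyz2* went from 0 counts in the 4 libraries before adhesion to 0.851 and 1.16 CPM in WT and to 6.52 and 5.26 CPM in E6, and *Cd68* went from 1.70 to 2.89 CPM before to 3.77 to 6.10 CPM after adhesion. The 9 erythroid markers summed to at most 0.182 CPM, with the 6 globin genes and *Slc4a1* at 0, and the 6 fibroblast markers to 1.12 to 3.97 CPM, with *Lum* at 0. In such bulk libraries fewer cells of a type and less RNA per cell cannot be told apart.

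The stretches upstream of 4 of the genes are shown because *Gclm* and *Srxn1* had lower levels after adhesion and because the metallothioneins lie side by side on chromosome 8. They are the 250 bases before the RefSeq start of the gene on GRCm38.p6, read 5′ to 3′ on the strand of the gene, here the plus strand for all 4. Capitals mark ARE cores (TGACNNNGC) and MRE cores (TGCACNC or TGCGCNC), searched on both strands in windows of 300 bases that end 50 bases after the start. A core on the other strand appears as its reverse complement.
*Gclm*, chr3:122245307-122245556: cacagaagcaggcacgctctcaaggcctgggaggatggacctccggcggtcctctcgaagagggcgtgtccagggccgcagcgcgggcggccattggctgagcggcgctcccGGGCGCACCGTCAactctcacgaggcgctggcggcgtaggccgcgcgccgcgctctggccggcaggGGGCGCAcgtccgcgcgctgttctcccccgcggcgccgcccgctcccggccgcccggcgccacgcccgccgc
*Srxn1*, chr2:152105274-152105523: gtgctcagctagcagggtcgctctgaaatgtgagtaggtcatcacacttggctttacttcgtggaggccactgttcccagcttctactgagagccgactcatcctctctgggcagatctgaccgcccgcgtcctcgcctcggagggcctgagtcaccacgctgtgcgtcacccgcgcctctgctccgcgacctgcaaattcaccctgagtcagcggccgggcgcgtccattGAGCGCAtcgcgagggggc
*Mt1*, chr8:94178839-94179088: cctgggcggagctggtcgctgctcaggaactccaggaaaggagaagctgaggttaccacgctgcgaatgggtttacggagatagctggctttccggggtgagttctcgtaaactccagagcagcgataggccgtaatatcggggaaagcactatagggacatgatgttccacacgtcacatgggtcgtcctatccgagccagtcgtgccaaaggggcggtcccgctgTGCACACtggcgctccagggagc
*Mt2*, chr8:94172368-94172617: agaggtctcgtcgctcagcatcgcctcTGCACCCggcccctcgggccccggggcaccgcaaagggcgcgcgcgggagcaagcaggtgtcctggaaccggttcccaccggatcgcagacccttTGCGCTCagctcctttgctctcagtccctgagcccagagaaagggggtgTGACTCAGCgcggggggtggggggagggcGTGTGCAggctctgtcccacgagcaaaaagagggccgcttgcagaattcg
In *Gclm* the core TGACGGTGC lay on the reverse strand and shared bases with an MRE core, so that both appear as 1 run of capitals, and a further MRE core stood nearer the start. The window of *Srxn1* held 1 MRE core before the start and 1 ARE core, TGACCTAGC, after it. *Mt2* held the ARE core TGACTCAGC and 3 MRE cores before its start, and *Mt1* held 1 MRE core before and 2 after its start. An ARE core was also found upstream of *Nfe2l2* (TGACTCCGC) and in 1 of the 3 windows of *Txnrd1* (TGACAAAGC), and neither motif was found in the windows of *Nqo1* and *Keap1*. An ARE core occurs in 12.4% and an MRE core in 25.7% of all 32851 windows of this length, and a match is a description of the letters.

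After adhesion, 4 of the 10 mRNAs were lower in each of the 4 libraries than in each of the 4 libraries before adhesion, which held for 1.7% of all tested mRNAs. These were *Hmox1*, *Gclm*, *Gclc* and *Srxn1*, whose fitted levels were 1.41 to 1.96 times lower on the average of WT and E6. The other enzymes of the NRF2 system among the 10, *Txnrd1* and *Nqo1*, had libraries that overlapped, with an averaged log2 FC of -0.18 and -0.31. *Hmox1* alone was DE, by an FDR under 0.05 and a fold change (FC) of at least 1.5, where 1.89% of all were. Between E6 and WT none of the 10 was DE, where 11.3% of all were. *Mt1* was 1.42 times and *Nfe2l2* 1.24 times lower in E6, both with an FDR under 0.05 and neither with the FC that DE requires, and 20.9% of all mRNAs had such an FDR. Markers of thymocytes and of macrophages moved with adhesion by the values above, and their part in the results for adhesion was not tested. The levels of the 10 genes in the 8 libraries are plotted below their symbols.

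**Figure D1:**
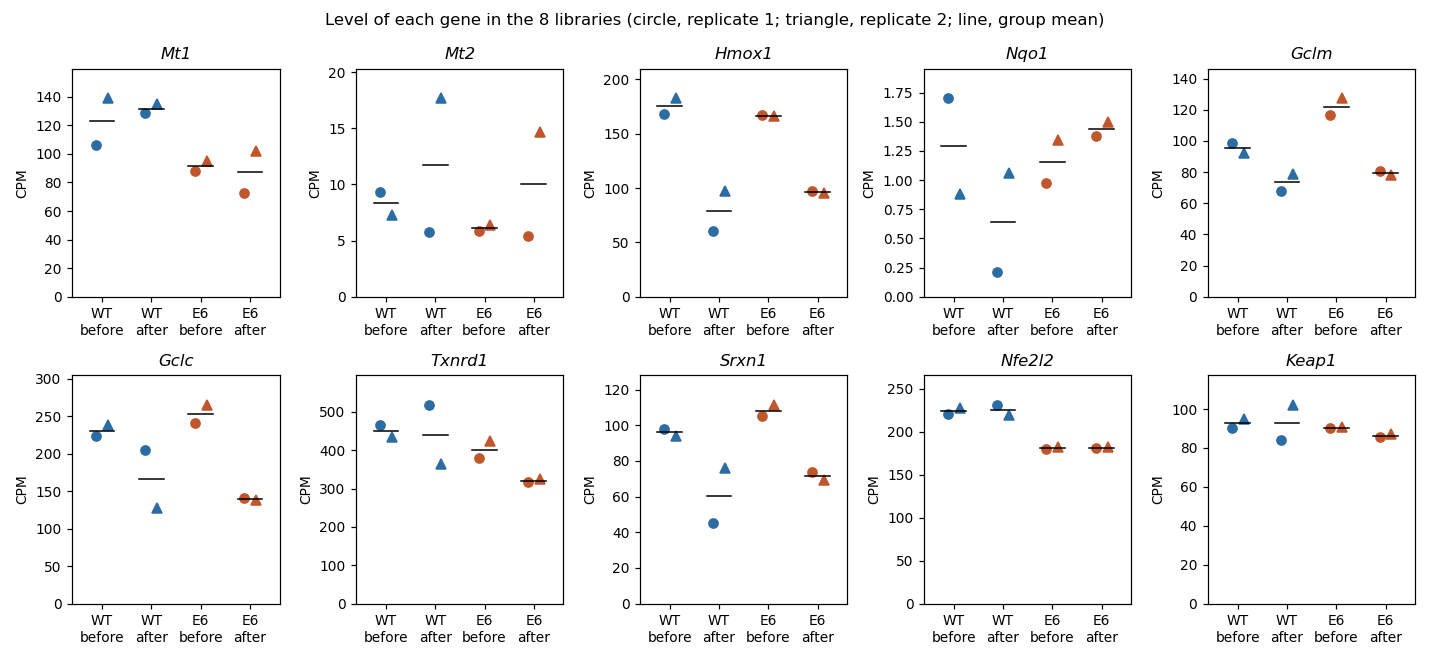
Level of each of the 10 mRNAs in CPM (vertical axis, from 0, with its own scale for each gene) in the 2 libraries of WT and E6 before and after adhesion. Circles are replicate 1, triangles replicate 2 and lines group means. Hmox1, Gclm, Gclc and Srxn1 are lower in all 4 libraries after adhesion, Mt1 and Nfe2l2 are lower in all 4 E6 libraries, and Mt2 is highest in replicate 2 of both groups after adhesion.

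Levels of different genes were compared as CPM per kilobase of exon in GENCODE vM21, averaged over the 8 libraries. By this measure *Mt1* came first with 86.9, followed by *Hmox1* with 73.9, *Txnrd1* with 56.9, *Nfe2l2* with 53.5 and *Gclc* with 52.4. *Srxn1* followed with 29.8, *Keap1* with 19.3, *Mt2* with 15.4 and *Gclm* with 14.7, and *Nqo1* came last with 0.728. The ranges over the libraries overlapped between each gene and the next in this order, except between *Gclm* (10.8 to 20.2) and *Nqo1* (0.137 to 1.09). For *Mt1* the 1246 bases counted as exon cover the whole annotated gene, introns included. Its level by this measure, and its overlap with *Hmox1*, depend on that length. *Nqo1* had 3 to 28 counts per library, with replicate 1 of WT after adhesion at the floor, so that only large differences in it were detectable.

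The comparison after against before adhesion asked how contact with thymocytes changed the mRNAs of the mTEC cells. *Hmox1* encodes heme oxygenase 1, which breaks heme down to biliverdin, iron and carbon monoxide (GRCm38 chr8:75093621-75100589, plus strand). In WT its level was 168 and 183 CPM before adhesion and 60.3 and 97.7 CPM after it. In E6 it was 167 and 166 CPM before and 97.2 and 95.7 CPM after adhesion. The groups did not overlap in either cell type, and the 2 libraries of each group lay close together except in WT after adhesion. Averaged over WT and E6, *Hmox1* fell by 0.97 on the log2 scale, with an SE of 0.15 and an FDR of 0.0232 (edgeR's quasi-likelihood test, adjusted by Benjamini-Hochberg). It was thereby 1 of the 12 mRNAs, 0.103% of those tested, that were DE and lower, and 1.89% were DE in either direction. *Hmox1* kept its direction without replicate 1 of WT after adhesion, where the log2 FC was -0.80, and without replicate 2, where it was -1.16. Each of these fits left 1 library in that group. Without any 1 of the other 6 libraries (replicates 1 and 2 of WT before, E6 before and E6 after adhesion) the log2 FC stayed between -0.998 and -0.938, but the FDR lay between 0.0995 and 0.142. Within the libraries with 12 h of culture *Hmox1* averaged 175 CPM in 2 libraries of WT before adhesion and was 60.3 CPM in 1 after it, replicate 1. In E6 at 12 h it was 166 CPM before and 95.7 CPM after adhesion, with 1 library each. At 24 h it was 167 CPM before and 97.2 CPM after adhesion in E6, and WT had no library before adhesion at 24 h.

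*Gclm* and *Gclc* encode the modifier and the catalytic subunit of glutamate-cysteine ligase, the enzyme of the rate-limiting step of glutathione synthesis. *Gclm* (chr3:122245557-122270732, plus strand) had 98.9 and 92.3 CPM in WT before and 67.9 and 79.1 CPM after adhesion, and in E6 117 and 127 CPM before and 81.0 and 77.8 CPM after it. All 4 libraries after adhesion were below all 4 before. Its averaged log2 FC of -0.50 ± 0.085 (SE) had an FDR of 0.0358, the only other of the 10 mRNAs under 0.05, and its FC of 1.41 was short of the limit for DE. Of all tested mRNAs 2.0% had an FDR under 0.05 in this comparison, against 2 of these 10. The FDR of *Gclm* rose above 0.05 without any 1 of the 6 libraries named for *Hmox1* (0.115 to 0.217), with culture time as a covariate (0.0730), without the filter on low counts (0.0552) and with a correction for GC content (0.0925). *Gclc* (chr9:77754535-77794485, plus strand) had 224 and 238 CPM in WT before and 205 and 128 CPM after adhesion. In E6 it had 242 and 265 CPM before and 141 and 138 CPM after adhesion. Replicate 1 of WT after adhesion lay nearest to the libraries before adhesion, and no library after adhesion reached them. The averaged log2 FC was -0.67 ± 0.15 (SE) with an FDR of 0.0871. Without replicate 1 of WT after adhesion, the library with the GC slope, it was -0.85. With the GC correction on all 8 libraries it was -0.69 and DE (FDR of 0.0417), where 2.04% of all mRNAs were DE. Without replicate 2 of WT after adhesion it was -0.52 and not DE, and without any 1 of the other 6 libraries the FDR was 0.249 to 0.386.

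*Srxn1* encodes sulfiredoxin, which restores over-oxidized peroxiredoxins, and *Txnrd1* encodes the cytosolic thioredoxin reductase. *Srxn1* (chr2:152105516-152111376, plus strand) had 97.8 and 94.2 CPM in WT before and 45.0 and 76.0 CPM after adhesion, and in E6 105 and 111 CPM before and 73.8 and 69.5 CPM after it. Its averaged log2 FC of -0.63 ± 0.16 (SE) did not pass the test (FDR of 0.134), although the libraries did not overlap. Without replicate 2 of WT after adhesion its log2 FC was -0.84, and without replicate 1 it was -0.45, which is short of the FC limit. Each of these fits left 1 library in that group. With the GC correction the log2 FC was -0.58 with an FDR of 0.0344, and only the FC was short of the limit for DE. *Txnrd1* (chr10:82833951-82897712, plus strand) had 466 and 433 CPM in WT before and 517 and 364 CPM after adhesion, which overlapped. In E6 it had 379 and 423 CPM before and 316 and 326 CPM after adhesion. Its averaged log2 FC was -0.18 ± 0.12 (SE), with an FDR of 0.675. *Nqo1*, which encodes a quinone reductase (chr8:107388225-107403206, minus strand), had 1.70 and 0.884 CPM in WT before and 0.213 and 1.06 CPM after adhesion. In E6 it had 0.971 and 1.34 CPM before and 1.38 and 1.49 CPM after adhesion. The averaged log2 FC of *Nqo1*, -0.31 ± 0.43 (SE), was smaller than its error. Without replicate 2 of WT after adhesion it was -1.15 and DE (FDR of 0.0332, where 11.04% of all mRNAs were DE), and without replicate 1 of that group it was -0.00024.

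**Figure D2:**
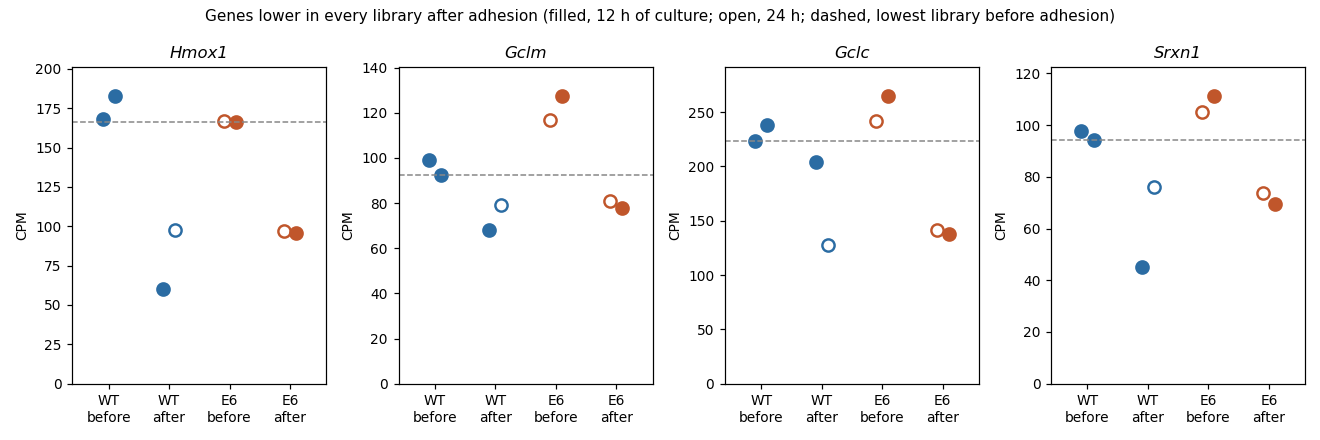
Levels in CPM (vertical axes, from 0) of the 4 mRNAs that were lower in every library after adhesion, with blue for WT and orange for E6. Filled points are libraries with 12 h of culture, open points those with 24 h, and the dashed line is the lowest library before adhesion. All 4 libraries after adhesion lie below the line for each gene, and Hmox1 falls from between 166 and 183 to between 60.3 and 97.7 CPM.

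The metallothioneins and the regulators did not pass the test for adhesion. *Mt1* (chr8:94179082-94180327, plus strand) had 107 and 139 CPM in WT before and 128 and 135 CPM after adhesion. In E6 it had 87.9 and 95.2 CPM before and 72.9 and 102 CPM after it, and its averaged log2 FC was 0.017 ± 0.13 (SE). *Mt2* (chr8:94172664-94173568, plus strand) had 9.35 and 7.30 CPM in WT before and 5.75 and 17.7 CPM after adhesion. In E6 it had 5.83 and 6.37 CPM before and 5.45 and 14.6 CPM after adhesion. In both cell types replicate 2 after adhesion was the highest, 3.07 times replicate 1 in WT and 2.69 times in E6, and replicate 1 was the lowest library of its cell type. The averaged log2 FC of *Mt2*, 0.61 ± 0.41 (SE), had an FDR of 0.670. It was 0.91 without replicate 1 of WT after adhesion, and 0.086 without replicate 2 of that group, and each of these fits left 1 library in the group. *Nfe2l2* (chr2:75675513-75704641, minus strand) had 221 and 228 CPM in WT before and 231 and 219 CPM after adhesion, and between 180.3 and 182 CPM in all 4 libraries of E6. Its averaged log2 FC was 0.0038 ± 0.072 (SE). *Keap1* (chr9:21229730-21239361, minus strand) had 90.2 and 95.0 CPM in WT before and 84.1 and 101.9 CPM after adhesion, and between 85.7 and 90.6 CPM in E6. Its averaged log2 FC was -0.030 ± 0.086 (SE).

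Over the 10 mRNAs, 7 had a negative averaged log2 FC for adhesion, with a median of -0.24, and the median of all 11672 was 0.0042. The 4 mRNAs with an unadjusted p under 0.05 (*Hmox1*, *Gclm*, *Gclc* and *Srxn1*) were all lower after adhesion. Of all tested mRNAs, 9.89% had such a p in either direction and 2.69% had it with a lower level. The same 4 were those whose libraries did not overlap with a lower level after adhesion, which held for 1.7% of all mRNAs. *Gclm*, *Gclc* and *Srxn1*, like *Hmox1*, were also lower after adhesion within the 12 h libraries of WT and of E6 and within the 24 h libraries of E6. Each of these comparisons had 1 library after adhesion, against 2 before it in WT and 1 before it in E6. The 1 of WT was replicate 1, the library with the GC slope. None of the 10 lay without overlap above the libraries before adhesion, which held for 3.82% of all. DESeq2 gave 3 of the 10 as DE (*Hmox1*, *Gclc* and *Srxn1*) and 2.89% of all mRNAs.

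Within each cell type, no mRNA among the 10 was DE after adhesion by edgeR's quasi-likelihood test. In WT, where 0.0% of all mRNAs were DE, 3 of the 10 had an unadjusted p under 0.05, all with a lower level. They were *Hmox1* (log2 FC of -1.15 ± 0.21, SE, FDR of 0.244), *Srxn1* (-0.66 ± 0.22) and *Gclm* (-0.38 ± 0.12), and 7.48% of all mRNAs had such a p, 1.91% with a lower level. DESeq2 gave *Hmox1* as DE in WT, among 0.548% of all. In E6, where 2.0% of all mRNAs were DE, 4 of the 10 had an unadjusted p under 0.05, all lower, against 6.97% of all mRNAs and 1.29% with a lower level. These were *Gclm* (log2 FC of -0.62 ± 0.12, SE, FDR of 0.0543), *Gclc* (-0.86 ± 0.21), *Hmox1* (-0.79 ± 0.21) and *Srxn1* (-0.59 ± 0.22). The fit estimated 1 spread per mRNA over all 8 libraries, so that these SE do not measure the spread within E6 alone. Over all tested mRNAs, the 2 libraries of WT after adhesion differed on average by 0.549 in log2 CPM. In the other groups this difference was 0.152 to 0.169. DESeq2 gave 3 of them as DE in E6, *Gclc*, *Gclm* and *Hmox1*, and so did edgeR on the 4 libraries of E6 alone, where 2.54% and 4.73% of all mRNAs were DE. Without replicate 1 or without replicate 2 of WT after adhesion, the pair with the widest spread, edgeR also gave these 3 in E6, with 4.96% and 4.89% of all mRNAs. In WT it then gave *Hmox1*, *Gclc* and *Mt2* without replicate 1, where 1.82% of all mRNAs were DE, and *Hmox1*, *Nqo1* and *Srxn1* without replicate 2, where 30.04% of all were. Each of these fits leaves 1 library for WT after adhesion, which is assumed to vary like the other groups.

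The difference of the adhesion effects, E6 against WT, was not DE for any of the 10, and no p was under 0.05 before adjustment, where 0.0% of all mRNAs were DE and 2.54% had a p under 0.05. DESeq2 gave none of the 10 and 0.0257% of all. For *Hmox1* the difference was 0.36 ± 0.29 (SE), for *Gclc* -0.38 ± 0.29 and for *Gclm* -0.24 ± 0.17, each less than 2 times its SE. Without replicate 2 of WT after adhesion 4 mRNAs (*Gclc*, *Hmox1*, *Mt2* and *Nqo1*) were DE here, where 3035 of all mRNAs (26.002%) were. Without replicate 1 of that group none of the 10 was, and 140 of all mRNAs (1.199%) were.

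The comparison of E6 with WT asked which mRNAs differed with the mutated *Aire*. For *Mt1* the 4 libraries of WT lay between 107 and 139 CPM and the 4 of E6 between 72.9 and 102 CPM, without overlap. The means were 127 ± 14.4 CPM in WT and 89.5 ± 12.5 CPM in E6 (SD, n = 4 each). The log2 FC averaged over before and after adhesion was -0.50 ± 0.13 (SE) with an FDR of 0.0369. Without replicate 2 of E6 after adhesion it was -0.64. The FDR rose to between 0.0622 and 0.148 without any 1 of replicates 1 and 2 of WT before adhesion, replicates 1 and 2 of E6 before adhesion or replicate 1 of E6 after adhesion. It was also above 0.05 with culture time as a covariate and without the filter on low counts (0.0571 in both). Among the 12 h libraries alone, *Mt1* was 107, 139 and 128 CPM in WT and 95.2 and 102 CPM in E6. At 24 h it was 135 CPM in WT and 87.9 and 72.9 CPM in E6. *Mt2* had overlapping libraries, with 10.01 ± 5.31 CPM in WT and 8.07 ± 4.39 CPM in E6 (SD, n = 4 each), and its log2 FC of -0.34 ± 0.41 (SE) was smaller than its error.

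*Nfe2l2* had the smallest spread of the 10 within the cell types, relative to its mean. Its mean was 224.5 ± 5.47 CPM in WT and 181 ± 1.02 CPM in E6 (SD, n = 4 each), and all 4 libraries of E6 were below all of WT. The log2 FC was -0.31 ± 0.072 (SE) with an FDR of 0.0236, and it was the same before (-0.31) and after adhesion (-0.31). Without replicate 1 or 2 of WT after adhesion the log2 FC was -0.28 and -0.32, with an FDR under 0.05. Without any 1 of the other 6 libraries it lay between -0.32 and -0.30 with an FDR of 0.103 to 0.121, and with culture time as a covariate the FDR was 0.05003. *Keap1* had 92.8 ± 7.56 CPM in WT and 88.4 ± 2.43 CPM in E6 (SD, n = 4 each) and a log2 FC of -0.071 ± 0.086 (SE), with overlap.

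Of the enzymes, *Gclm* and *Txnrd1* had an unadjusted p under 0.05 between E6 and WT, in opposite directions. *Gclm* was higher in E6 by 0.23 ± 0.085 (log2 FC, SE) with an FDR of 0.0967. *Txnrd1* was lower, with a log2 FC of -0.31 ± 0.12 (SE) and an FDR of 0.117. *Txnrd1* lies on chromosome 10, whose 461 well-expressed mRNAs had a median log2 FC of -0.37 between E6 and WT. The medians of chromosome 8, with *Mt1*, and of chromosome 2, with *Nfe2l2*, were 0.0067 and 0.021. The other enzymes had a log2 FC of 0.11 ± 0.15 for *Hmox1*, -0.059 ± 0.15 for *Gclc*, 0.21 ± 0.16 for *Srxn1* and 0.44 ± 0.43 for *Nqo1* (SE). Each of these 4 had libraries that overlapped between the cell types, and the smallest FDR among them was 0.387.

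**Figure D3:**
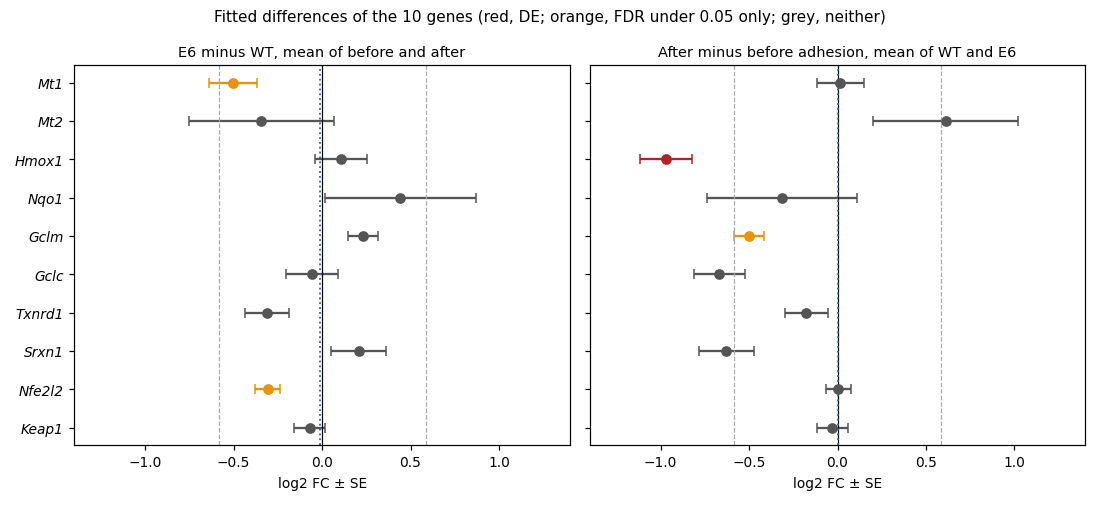
Fitted log2 FC with its SE (horizontal axis) of the 10 mRNAs between E6 and WT (left) and between after and before adhesion (right). Red is DE, orange an FDR under 0.05 with an FC below 1.5, grey neither, dashed lines mark an FC of 1.5 and the dotted line is the median of all 11672 tested mRNAs. Hmox1 is the only DE mRNA, at -0.97 for adhesion, and Mt1 and Nfe2l2 lie at -0.50 and -0.31 for E6 against WT.

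Averaged over adhesion, E6 against WT gave none of the 10 mRNAs as DE (edgeR's quasi-likelihood test), where 11.3% of all mRNAs were. An FDR under 0.05 with any FC was found for 2 of the 10 and for 20.9% of all, and an unadjusted p under 0.05 for 4 of the 10 and 35.3% of all. The libraries lay without overlap lower in E6 for 2 of the 10 (*Mt1* and *Nfe2l2*) and for 15.5% of all, and higher in E6 for none of the 10 and for 15.7% of all. The shares among these 10 were thus near those of all mRNAs. Before adhesion none of the 10 was DE, against 5.01% of all, and *Gclm* (log2 FC of 0.35 ± 0.12, SE) and *Nfe2l2* (-0.31 ± 0.10) had an unadjusted p under 0.05, against 21.6% of all. After adhesion none was DE, against 8.91% of all, and *Mt1* (-0.59 ± 0.19), *Txnrd1* (-0.46 ± 0.17, with -0.39 as the median of chromosome 10) and *Nfe2l2* (-0.31 ± 0.10) had such a p, against 29.7% of all. DESeq2 gave none of the 10 as DE in these 3 comparisons, where 12.1%, 7.21% and 11.6% of all mRNAs were. After adhesion *Mt1* was DE with the GC correction (log2 FC of -0.68), with 11.9% of all mRNAs. *Mt1* and *Mt2* were DE there without replicate 1 of WT after adhesion, with 15.6% of all mRNAs. *Hmox1*, *Mt2*, *Nqo1*, *Srxn1* and *Txnrd1* were DE there without its replicate 2, with 37.8% of all mRNAs. The averaged comparison gave *Mt2* as DE without replicate 1 of that group, with 13.2% of all mRNAs, and *Nqo1* without replicate 2, with 21.4% of all. The comparisons before and after adhesion are parts of the averaged one and share its libraries.

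Other genes of these pathways were read from 9 lists with 104 symbols, of which 83 mRNAs were tested. Between E6 and WT, 17 of the 83 (20.5%) were DE, 11 higher and 6 lower in E6, against 11.3% of all mRNAs. Their median log2 FC was -0.024, beside -0.013 for all mRNAs. The count was 4 to 7 (4.82% to 8.43%) without any 1 of the libraries of WT before adhesion, E6 before adhesion and E6 after adhesion, where 678 to 813 of all mRNAs (5.81% to 6.97%) were DE, so that the share in the lists was then near that of all mRNAs. It was 14 (16.9%) and 20 (24.1%) without replicate 1 and replicate 2 of WT after adhesion, where 13.2% and 21.4% of all mRNAs were DE. For adhesion 1 of the 83 was DE (1.205%), against 1.89% of all mRNAs. An unadjusted p under 0.05 by edgeR was found for 19 of the 83 (22.9%), against 9.89% of all mRNAs. It came with a lower level for 15 of the 83, against 2.69% of all. A log2 FC below 0 was found for 62 of the 83. The median was -0.17 for the 83 and 0.0042 for all mRNAs. The count for adhesion was 0 without any 1 of the same 6 libraries (0.334% to 0.865% of all mRNAs). It was 2 (2.41%) and 13 (15.7%) without replicate 1 and replicate 2 of WT after adhesion, where 4.19% and 11.04% of all mRNAs were DE.

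Among 9 tested mRNAs of metal handling, 2 were DE between E6 and WT, both zinc importers of the ZIP family. *Slc39a10* was lower in E6, at 47.2 ± 7.03 CPM against 76.9 ± 21.5 CPM in WT (log2 FC of -0.69). *Slc39a14*, which also carries iron and manganese, was higher, at 75.3 ± 3.77 against 50.2 ± 5.66 CPM (0.59). These and the following CPM are means with SD over 4 libraries of each cell type. Of 11 regulators of the NRF2 system 3 were DE and higher in E6. *Mafk*, a small MAF protein that pairs with NRF2, had 78.4 ± 10.3 against 47.2 ± 6.01 CPM (0.73), and it lies on chromosome 5, whose mRNAs had a median log2 FC of 0.33, while the medians for the chromosomes of the other pathway genes named lay between -0.14 and 0.096. *Nfe2l3*, a relative of *Nfe2l2*, had 5.48 ± 0.894 against 3.37 ± 0.373 CPM (0.69). Both had libraries without overlap between E6 and WT, while the mRNA of *Nfe2l2* itself was lower in E6.

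In glutathione synthesis and peroxidases, 3 of 12 were DE. *Mgst1*, a membrane-bound glutathione transferase, had 4.07 ± 0.484 CPM in E6 against 8.61 ± 1.43 in WT (log2 FC of -1.08). *Slc7a11*, the cystine importer that feeds glutathione synthesis, had 9.46 ± 2.54 against 17.4 ± 7.29 CPM (-0.79), with overlap of the libraries. *Gpx1*, the cytosolic glutathione peroxidase, was higher, at 100.1 ± 3.21 against 63.8 ± 12.2 CPM (0.65). Of 9 glutathione transferases 5 were DE, 4 higher and 1 lower in E6. *Gstm2* had 40.8 ± 0.932 against 26.5 ± 3.21 CPM (0.62), *Gsto1* 8.51 ± 0.466 against 5.59 ± 0.859 CPM (0.60), and *Gstm5* 4.99 ± 0.476 against 8.19 ± 1.64 CPM (-0.72). Glutathione transferases of one class have similar sequences, so that reads may have been split between them or left out, and their counts are uncertain to that extent.

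*Idh1*, the cytosolic isocitrate dehydrogenase that yields NADPH, was the 1 of 6 mRNAs of NADPH supply that was DE, with 29.4 ± 3.01 CPM in E6 against 74.8 ± 6.21 in WT (log2 FC of -1.35 ± 0.083, SE, FDR of 2.3e-04). This was the largest fall of the pathway genes named. Of 10 mRNAs of heme and iron, *Slc40a1*, the iron exporter ferroportin, was DE and higher in E6, at 14.8 ± 1.403 against 9.43 ± 2.40 CPM (0.65). In quinone and xenobiotic metabolism 2 of 8 were DE. *Ephx1*, the microsomal epoxide hydrolase, had 98.2 ± 8.81 against 184 ± 37.3 CPM (-0.90), and *Abcc1*, an exporter of glutathione conjugates, had 275 ± 19.9 against 182 ± 40.9 CPM (0.61). None of 14 mRNAs of the thioredoxin and peroxiredoxin list and none of 4 superoxide dismutases and catalase passed as DE in this comparison with either edgeR or DESeq2. By edgeR 5 (35.7%) and 0 of them had an unadjusted p under 0.05, against 35.3% of all mRNAs. The only DE mRNA of the lists for adhesion was *Gsta4*, the transferase of lipid aldehydes such as hydroxynonenal. It had 76.1 ± 17.5 CPM before and 49.0 ± 7.20 CPM after adhesion (SD, n = 4 each), with a log2 FC of -0.62 ± 0.089 (SE) and an FDR of 0.0190.

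**Figure D4:**
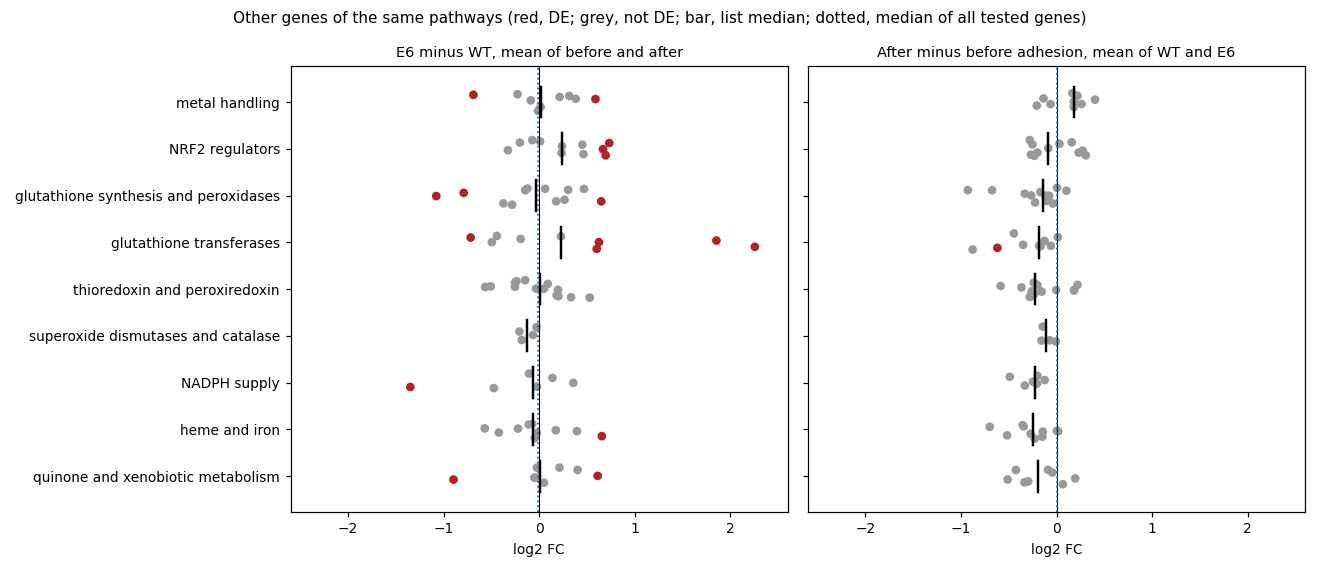
Fitted log2 FC (horizontal axis) of the 83 tested mRNAs of 9 pathway lists between E6 and WT (left) and between after and before adhesion (right). Each point is 1 mRNA, red if DE, the black bar is the median of the list and the dotted line the median of all 11672 tested mRNAs. Between E6 and WT 17 points are red on both sides of 0, and for adhesion 1 is red while 8 of the 9 list medians lie below 0.

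The median log2 FC of the lists for adhesion was -0.25 for heme and iron, -0.23 for NADPH supply, -0.22 for thioredoxin and peroxiredoxin, -0.19 for quinone and xenobiotic metabolism, -0.18 for glutathione transferases and -0.14 for glutathione synthesis and peroxidases. It was -0.11 for superoxide dismutases and catalase and -0.086 for the NRF2 regulators. Metal handling alone had a positive median, 0.18. All 6 mRNAs of NADPH supply had a negative log2 FC for adhesion, with 3 at an unadjusted p under 0.05 by edgeR, and none was DE. In heme and iron 8 of 10 were negative, with 2 at such a p. Of all tested mRNAs 9.89% had such a p, 2.69% with a lower level. Also negative were 4 of 4 superoxide dismutases and catalase, 8 of 9 glutathione transferases and 10 of 12 in glutathione synthesis and peroxidases. The other lists had 11 of 14 (thioredoxin), 6 of 8 (quinone), 6 of 11 (NRF2 regulators) and 3 of 9 (metal handling).

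The mRNA whose profile over the 8 libraries was most like that of *Hmox1* was *Srxn1*, with a root mean square difference of 0.196 in log2 CPM after each mRNA was centred on its mean. *Trim54* (0.218) and *Gm11974* (0.231) came next among all other tested mRNAs. *Trim54* had 7.64 CPM before and 4.55 CPM after adhesion on average, and *Gm11974* had 18.7 and 11.5 CPM. Of the 10, *Gclm* stood at rank 93 in likeness to *Hmox1* and *Gclc* at rank 1251, and the next, *Keap1*, at rank 3426. These profiles were not corrected for GC content, which was 53.3% for *Hmox1*, 53.3% for *Srxn1*, 47.7% for *Gclc* and 42.1% for *Gclm*. They include replicate 1 of WT after adhesion, the library with the GC slope. Replicate 2 of that group was 1.62 times replicate 1 for *Hmox1*, 1.69 for *Srxn1*, 1.16 for *Gclm* and 0.624 for *Gclc*. The part of this library in the ranks was not tested.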

How the data were processed

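The 8 libraries were grouped by the cell type and co-culture in their titles and source names, although the protocol of E6 before adhesion also mentions co-culture. According to the study's methods and the submitters' processing notes, the authors aligned paired-end reads to mm10 with STAR 2.5.0a, and they deposited for each library the raw counts of reads per gene symbol from HTSeq, without normalization. The annotation and the strand setting of the counting are not given in the sources used here. Rows that name no gene, such as reads outside genes (8.26% to 15.2% of alignments), were left out. In replicate 1 of E6 before adhesion, 18 symbols turned into dates were restored from the gene order shared by all libraries.

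Genes were filtered with filterByExpr, scaled by TMM, and fitted with edgeR 4.0.16 in R 4.3.3 (quasi-likelihood test, 1 mean per group over all 8 libraries, Benjamini-Hochberg FDR over 11672 mRNAs). As in the study, DE required both an FDR under 0.05 and an FC at or over 1.5. SE were derived from the test as the absolute log2 FC divided by the square root of F, and profiles used log2 CPM with a prior count of 2. The fit was run on simulated data with 1 spread per mRNA for all groups. Such data do not cover the wider spread of WT after adhesion. Alternatives were RLE size factors, DESeq2 1.42.0, no filter, a replicate block, culture time as a covariate, a GC correction (lowess, span 0.3, limma 3.58.1), no FC limit, only the 4 libraries compared, and each library left out. A fit to the 12 h libraries was chosen after seeing the data. Positions, exon lengths and GC content came from GENCODE vM21 on GRCm38, where 22740 symbols matched directly, 951 by an older symbol and 361 not at all, and promoters from RefSeq on GRCm38.p6, which matched 8 of the 10 genes (not *Hmox1* and *Gclc*). Summaries used Python 3.11.15 with pandas 2.3.3.

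The 10 genes, the pathway lists and the marker lists were chosen with earlier results of these data known. Beside the 10, the mRNAs named were, in each pathway list, up to 2 DE mRNAs with the largest rise and 2 with the largest fall at a mean log2 CPM of 1 or more, and the 3 mRNAs most like a DE member in profile. Floors cover only counting error.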

Additional observations from a re-analysis of the deposited data

How the results depend on the processing

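Of 480 refits of a log2 FC, 421 kept direction and call, 38 became DE, 6 lost DE and 15 changed sign. The 6 were all of *Hmox1* for adhesion, each without 1 library. Its log2 FC was -0.98 with a replicate block, which changed no DE call among the 10 mRNAs, while the FDR of *Gclm* became 0.0735. The replicate numbers were not treated as pairs, since the labels give no pairing and deviations of same-numbered libraries correlated by 0.222 between the WT groups and by -0.079 to 0.023 in the other pairs. Counts of DE mRNAs among the 10 are given here beside the share of all tested mRNAs. Fits to the 12 h libraries and fits with a library left out are not counted here, since they leave 1 library in a group. In those fits the share of all mRNAs called DE changed as well as the count among the 10. For E6 against WT averaged the count was 2 with no FC limit, against 20.9% of all. After adhesion it was 1 with the GC correction, against 11.9% of all. For adhesion averaged it was 3 with DESeq2 (2.89% of all), 2 with the GC correction (2.04%) and 2 with no FC limit (2.0%). In WT it was 1 with DESeq2, 3 in the 12 h libraries and 0 to 3 with a library left out, and in E6 3, 5 and 0 to 3, with 1 under the GC correction and 3 in the 4 libraries compared. The difference of the effects gave 0 with DESeq2, against 0.0257% of all. The pathway lists gave 28 with no FC limit and 4 to 20 with a library left out for E6 against WT, and 3 with DESeq2, 2 with the GC correction, 14 in the 12 h libraries and 0 to 13 with a library left out for adhesion. In the 12 h libraries only WT before adhesion had 2 libraries, whose spread stood for all groups.

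Changes of sign were small except for *Mt2*. Between E6 and WT, *Mt2* was 0.49 in the 12 h libraries and -0.78 to 0.19 with a library left out, *Gclc* 0.022 with culture time as a covariate and -0.20 to 0.15, *Keap1* 0.021 in the 12 h libraries and -0.12 to 0.013, and *Hmox1* -0.031 to 0.31. For adhesion, *Nfe2l2* was -0.019 and *Keap1* 0.072 with the GC correction, and with a library left out *Mt1* was -0.11 to 0.13, *Nfe2l2* -0.0071 to 0.024 and *Keap1* -0.10 to 0.048. The cause was not tested. RLE size factors moved 2 of 40 group means by more than their SD. Depth limited *Nqo1*, and 2 libraries per group limited all 10.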

Other observations

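*Mt2* was not alone in standing higher in replicate 2 than in replicate 1 of both groups after adhesion. Among the 10292 mRNAs whose log2 CPM averaged 1 or more, 7 were at least 2 times higher in replicate 2 in both WT and E6 after adhesion, and none was at least 2 times lower in both. Before adhesion, no mRNA differed by this much in the same direction in both cell types. The 7 were *Hspa1b*, *Hes1*, *Mt2*, Rn45s (a precursor of ribosomal RNA, not an mRNA), Smpd3, Irs2 and Asap3, chosen after their values were seen. *Hspa1b*, an inducible chaperone of the HSP70 family, had 10.6 and 120.5 CPM in the 2 libraries of WT after adhesion and 5.93 and 60.1 CPM in those of E6, against 7.89 to 25.3 CPM before adhesion. *Hes1*, a target of Notch signalling, had 58.7 and 195 CPM in WT and 53.5 and 171 CPM in E6 after adhesion, against 30.5 to 37.5 CPM before. *Mt1*, the neighbour of *Mt2*, did not share the size of this difference, with ratios of 1.05 in WT and 1.399 in E6. Replicate 2 of WT was cultured for 24 h and replicate 2 of E6 for 12 h by the labels, which do not say whether libraries with the same number shared thymocytes, and the part of either in these values was not tested.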
